A study of Arabidopsis thaliana with 7 samples.

Results

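The expansin genes were taken as all probe sets with a single platform gene symbol beginning EXPA, EXPB, EXLA or EXLB whose highest of 7 arrays exceeded an intensity of 248.1, the median of all values in the data. Of the 22810 probe sets, 18 carried 1 such symbol and 11 of these passed. They were 5 of 10 EXPA genes (EXPA4, EXPA8, EXPA9, EXPA15 and EXPA24), 3 of 4 EXPB genes (EXPB1, EXPB3 and EXPB5), 2 of 3 EXLA genes (EXLA1 and EXLA2) and the single EXLB gene, EXLB1. The RefSeq gene table lists 34 symbols of these classes, so the account covers the named portion of the family.

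Expansins are small secreted proteins that let plant cell walls slip and extend, most actively at acid pH, without cutting the wall polymers. The alpha-expansins (EXPA) and beta-expansins (EXPB) are the classes with known wall-loosening action, while the expansin-like A (EXLA) and B (EXLB) proteins share their domain structure and have no established activity on walls. Auxin promotes cell expansion in part by acidifying the wall, and ARF6 and ARF8 encode auxin response factors, transcription factors needed for stamen elongation, petal growth and pollen release in late flower development.

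The 7 samples were Arabidopsis thaliana flowers of stages 1 to 14, each measured on 1 array of a 1-colour Affymetrix platform. They comprised the arf6 arf8 double mutant with IAA and untreated, the third genotype with IAA and untreated, and wild-type Columbia with IAA, with mock spray and untreated. In the sample labels the third genotype is arf6/arf6 ARF8/arf8, whereas in the series text ARF6 is the heterozygous gene, so which gene kept a wild-type copy is not settled. IAA is indole-3-acetic acid, the main natural auxin, sprayed at 10 µM per the sample labels and 10 mM per the series text. Its carrier was 1% methanol with 0.05% Tween-20, also the mock spray, and flowers were taken after 30 minutes. Untreated plants received no spray, and all plants had grown for 6 weeks under long days.

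No group had a repeat array, so values of single arrays carry no error, and the p-values below come from a limma model in which genotype and treatment add. They measure how far the genotypes agree on a treatment difference and the treatments on a genotype difference, relative to the spread left by that model over 7 arrays. All genotype terms share arrays: both mutant comparisons use the same wild-type arrays. Median intensities ranged over the arrays between 240.95 and 261.5. Dim values were raised on the wild-type mock array, whose 10th percentile was 26.9 against 9.4 to 17.89 elsewhere, and the dimmest measured expansins, EXPA24 and EXPB1, were highest there. The next highest 10th percentile, 17.89, was on the double-mutant IAA array, against 9.79 on the untreated array of that genotype. No probe set named here carries ARF6 or ARF8, and 0 of 10 flower identity markers lay on a named probe set, so neither the genotypes nor the tissue was checked on its defining genes.

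**Figure D1:**
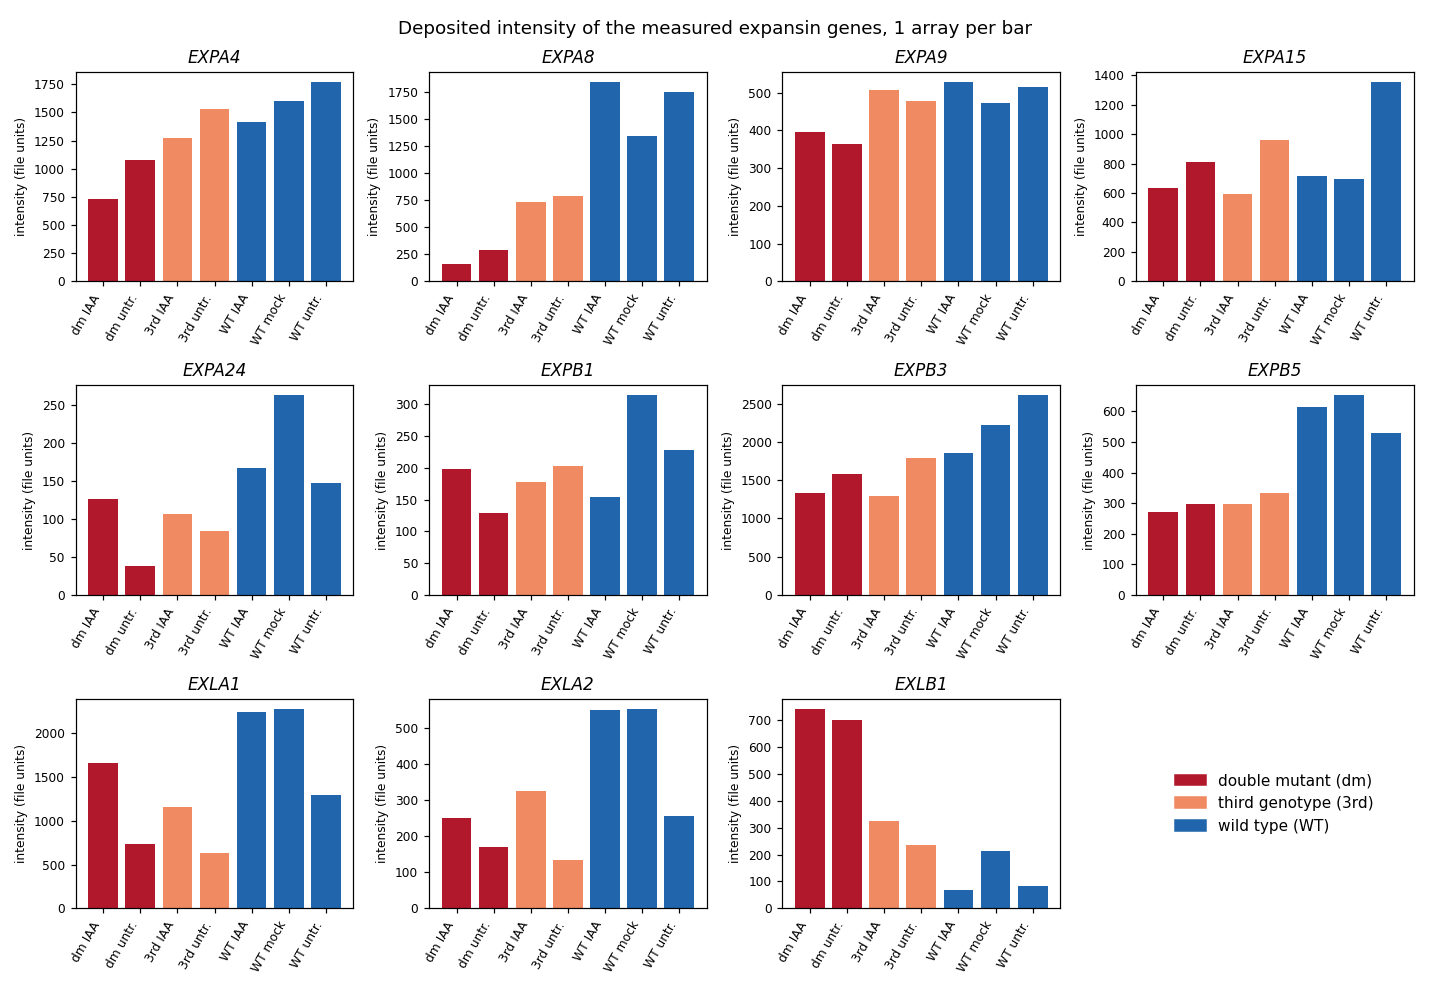
Deposited intensity (vertical axis, file units, from 0) of the 11 measured expansin genes on each of the 7 arrays (horizontal axis), coloured by genotype, with IAA left of mock and untreated. Each bar is 1 array without an error; EXPA8 is lowest on the double-mutant arrays (163.9 and 289.1), and EXLB1 is highest there (742.5 and 700.8).

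The double mutant was compared with wild type to ask which expansin transcripts differ when both factors are lost. Of the 8 expansins that exceeded the intensity filter on at least 1 array of every genotype, 6 fell in the double mutant (EXPA4, EXPA8, EXPB3, EXPB5, EXLA1 and EXLA2) and 0 rose. Over all 13021 probe sets tested, 7.96% were lower and 9.14% higher by the same limma threshold (adjusted p under 0.05). That base includes probe sets above the filter in only some genotypes, so it is wider than the base of the 8 genes. With the filter set to the 70th percentile, 1035 of 8340 probe sets were lower and 1098 higher. Of the other 3 genes, EXPA24 was called lower and EXLB1 higher, but each entered the test only through arrays of the genotypes in which it read high, EXPA24 through 1 wild-type array and EXLB1 through mutant arrays. Their calls, which bring the count to 8 of 11, are therefore not independent of the filter. The median difference was -0.73 on the log2 scale for the 8 genes and -0.62 for all 11, beside 0.02 for all probe sets tested. These signals come from whole flowers, in which fewer cells of a type and less RNA per cell cannot be told apart.

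EXPA8 (AT2G40610), an alpha-expansin, had the largest fall of the 11 genes. Its intensity was 163.9 with IAA and 289.1 untreated in the double mutant, 729.9 and 793.6 in the third genotype, and 1844.1 with IAA, 1343.4 with mock and 1749.3 untreated in wild type. The genotypes formed separate ranges with the third genotype between the others. EXPA8 was 8.25-fold lower in the double mutant than in wild type (log2 -3.04 ± 0.22, SE; limma, adjusted p = 0.000484) and 2.36-fold lower in the third genotype (log2 -1.24 ± 0.22; limma, adjusted p = 0.0383). The double mutant also lay below the third genotype (log2 -1.81 ± 0.22; limma, adjusted p = 0.0133). The fall in the third genotype lost its call without that genotype's untreated array (limma, adjusted p = 0.115) or the wild-type IAA array (0.0835) and with the floor raised to the 40th percentile (0.0679), and the difference between the mutants lost it without the double-mutant IAA array (limma, adjusted p = 0.0899).

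EXLB1 (AT4G17030), the expansin-like B gene, moved the other way. It entered the test through mutant arrays alone, so its calls are not independent of the filter. Its intensity was 742.5 with IAA and 700.8 untreated in the double mutant, 325.5 and 235.4 in the third genotype, and 70.1 with IAA, 211.9 with mock and 84.8 untreated in wild type. No array of one genotype overlapped another genotype's range, although the wild-type mock array came close to the untreated array of the third genotype. EXLB1 was 9.36-fold higher in the double mutant than in wild type (log2 3.23 ± 0.19, SE; limma, adjusted p = 0.000249) and 3.59-fold higher in the third genotype (log2 1.84 ± 0.19; limma, adjusted p = 0.00964). The double mutant exceeded the third genotype by 1.38 ± 0.19 (limma, adjusted p = 0.022). Because wild type lay near the floor of 64.9, a floor at the 40th percentile gave smaller differences, 2.199 in the double mutant and 0.817 in the third genotype, the smaller of which was not called (limma, adjusted p = 0.0723). The difference between the mutants lost its call without either double-mutant array (limma, adjusted p = 0.118 for leaving out untreated and 0.248 for leaving out IAA) or the untreated array of the third genotype (0.0766).

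EXPA8 and EXLB1 were the 2 expansins whose arrays fell in the order double mutant, then the third genotype, then wild type with no overlap. Among all probe sets tested 9.89% were ordered in this way in either direction, 4.68% rising toward wild type and 5.21% falling. EXPA8 and EXLB1 were also the 2 expansins called between the double mutant and the third genotype, where limma called 1.25% of all probe sets. EXLB1 entered the test through mutant arrays alone, so its part in both counts is not independent of the filter.

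**Figure D2:**
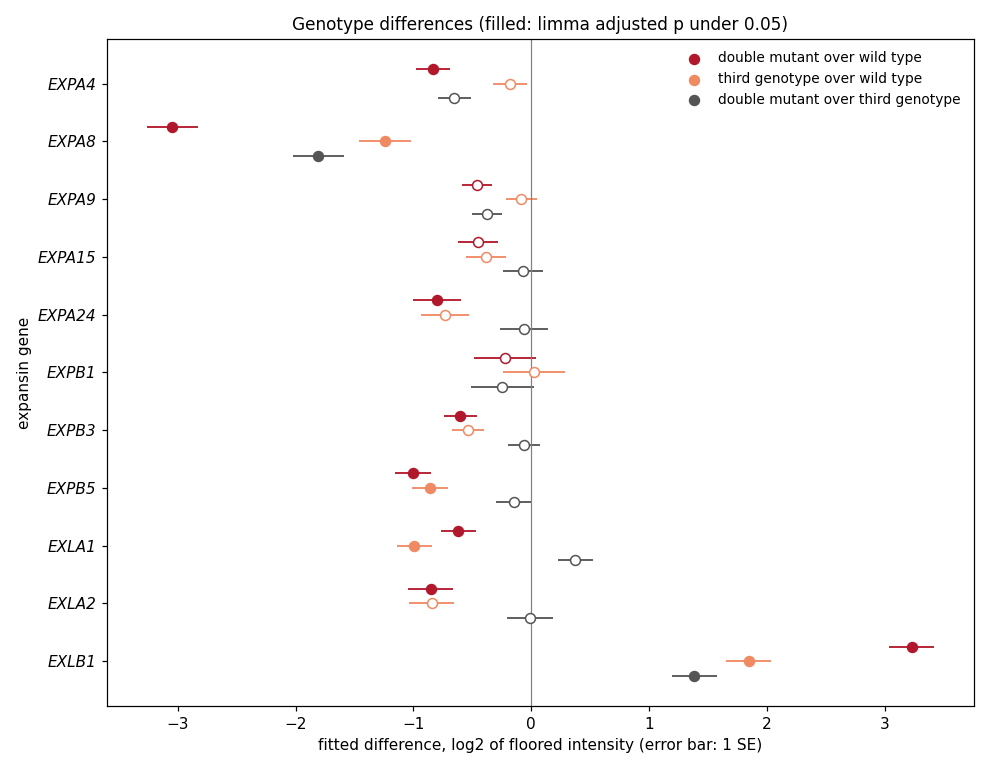
Fitted genotype differences (horizontal axis, log2 of floored intensity, error bars 1 SE) for the 11 expansin genes (vertical axis), with filled points past the limma threshold. EXPA8 lies far to the left and EXLB1 far to the right for all 3 differences, and the other called differences lie between -1.01 and -0.60.

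The alpha-expansin EXPA4 (AT2G39700) was lower in the double mutant than in both other genotypes. Its intensity was 730.1 with IAA and 1078.5 untreated in the double mutant, 1270.9 and 1533.5 in the third genotype, and 1412.0 with IAA, 1604.2 with mock and 1771.0 untreated in wild type. The double-mutant arrays lay below all others, while the third genotype and wild type overlapped. Of all probe sets tested, 17.5% lay lower in the double mutant than in the third genotype without overlap. The difference from wild type was -0.83 ± 0.14 on the log2 scale in the double mutant (SE; limma, adjusted p = 0.0108) and -0.18 ± 0.14 in the third genotype (limma, adjusted p = 0.524). Without the double-mutant IAA array the first was not called (limma, adjusted p = 0.0699). The difference between the mutants was -0.65 ± 0.14 and did not pass (limma, adjusted p = 0.0946), but passed with an intensity trend (0.0231) and with the filter set to the 70th percentile (0.0478).

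EXPA9 (AT5G02260) had the narrowest range of the 11 genes, 1.45-fold from its lowest to its highest array. Its intensity was 394.4 with IAA and 365.1 untreated in the double mutant, 508.2 and 476.9 in the third genotype, and 528.6, 471.6 and 515.1 with IAA, mock and no treatment in wild type. The double mutant lay below all other arrays, and its difference from wild type of -0.46 ± 0.13 was just outside the threshold (log2, SE; limma, adjusted p = 0.053). It passed after quantile normalization (limma, adjusted p = 0.049), after scaling to the median of bright probe sets (0.0454), with an intensity trend (0.0411) and with the filter set to the 70th percentile (0.0281). The difference of EXPA9 between the mutants was -0.38 ± 0.13 and did not pass (limma, adjusted p = 0.26).

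EXPB5 (AT3G60570), a beta-expansin, was lower in both mutants. Its intensity was 271.5 with IAA and 296.8 untreated in the double mutant, 296.2 and 334.0 in the third genotype, and 613.6 with IAA, 652.8 with mock and 530.0 untreated in wild type. Both mutants lay below every wild-type array and overlapped with each other. EXPB5 was 2.01-fold lower in the double mutant (log2 -1.01 ± 0.15, SE; limma, adjusted p = 0.00725) and 1.81-fold lower in the third genotype (log2 -0.86 ± 0.15; limma, adjusted p = 0.038). The difference between the mutants was -0.15 ± 0.15 (limma, adjusted p = 0.708). The call in the double mutant was lost without its IAA array (limma, adjusted p = 0.0681), and that in the third genotype without any array except the wild-type mock and untreated arrays (limma, adjusted p from 0.0675 to 0.21), and with the higher floor (0.0563).

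EXPB3 (AT4G28250), a further beta-expansin, had smaller differences. Its intensity was 1331.6 with IAA and 1584.2 untreated in the double mutant, 1290.4 and 1786.5 in the third genotype, and 1861.8 with IAA, 2226.2 with mock and 2612.1 untreated in wild type. Every wild-type array exceeded every mutant array. The difference from wild type was -0.60 ± 0.14 in the double mutant (log2, SE; limma, adjusted p = 0.029) and -0.54 ± 0.14 in the third genotype (limma, adjusted p = 0.0932). Without any one of the double-mutant arrays or the wild-type IAA or untreated array the first was not called (limma, adjusted p from 0.0673 to 0.132). The second passed with an intensity trend (limma, adjusted p = 0.0272) and with the stricter filter (0.0494).

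The expansin-like A genes EXLA1 (AT3G45970) and EXLA2 (AT4G38400) differed with genotype and with the spray. EXLA1 read 1664.0 with IAA and 738.8 untreated in the double mutant, 1163.2 and 630.2 in the third genotype, and 2249.1 with IAA, 2281.6 with mock and 1292.6 untreated in wild type. EXLA2 read 251.0 and 171.6 in the double mutant, 324.8 and 134.4 in the third genotype, and 550.3 with IAA, 554.3 with mock and 256.1 untreated in wild type, with IAA first in each mutant. For both genes each mutant array was below the wild-type array of the same treatment.

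EXLA1 fell by 0.62 ± 0.15 on the log2 scale in the double mutant and by 0.99 ± 0.15 in the third genotype (SE; limma, adjusted p = 0.0328 and 0.0227). EXLA2 fell by 0.86 ± 0.19 in the double mutant (limma, adjusted p = 0.0277), and its value in the third genotype was -0.85 ± 0.19 (limma, adjusted p = 0.0722). Between the double mutant and the third genotype the difference was 0.37 ± 0.15 for EXLA1 and -0.01 ± 0.19 for EXLA2 (limma, adjusted p = 0.329 and 0.989). The calls depended on single arrays. EXLA1 lost its call in the double mutant without either of its arrays or the wild-type IAA or untreated array (limma, adjusted p from 0.0598 to 0.158), and in the third genotype without either of its arrays or the wild-type untreated array (0.067 to 0.0975). EXLA2 lost it without the double-mutant IAA array (limma, adjusted p = 0.117) or the wild-type IAA array (0.108), and its value in the third genotype passed with the stricter filter (0.0379) and the intensity trend (0.0438).

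EXPA24 (AT5G39310) and EXPB1 (AT2G20750) were the dimmest measured members and exceeded 248.1 on the wild-type mock array alone, where dim values were raised. Without that array neither would have been tested, so a lower value of EXPA24 in the mutants gives no support of its own. The part of that rise in their values was not tested. EXPA24 read 126.7 with IAA and 38.2 untreated in the double mutant, 107.3 and 83.8 in the third genotype, and 167.9 with IAA, 263.4 with mock and 148.2 untreated in wild type. Every mutant array was below every wild-type array, and the difference in the double mutant was -0.80 ± 0.20 (log2, SE; limma, adjusted p = 0.0394). It was -0.05 with the floor raised to the 40th percentile (limma, adjusted p = 0.804), and was not called with the floor lowered to the 10th percentile (0.0657) or an intensity trend (0.139). Without the untreated array of the double mutant or of wild type it was not called either (limma, adjusted p = 0.112 and 0.166). EXPB1 read 199.0 and 129.4 in the double mutant, 178.5 and 202.8 in the third genotype, and 153.8 with IAA, 314.3 with mock and 228.8 untreated in wild type. Its genotype ranges overlapped throughout, and its differences were -0.23 ± 0.26 in the double mutant and 0.02 ± 0.26 in the third genotype (limma, adjusted p = 0.586 and 0.979).

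In the third genotype against wild type 3 of the 8 expansins that passed the filter in every genotype fell (EXPA8, EXPB5 and EXLA1), and EXLB1, let through by mutant arrays alone, was called higher. Over all probe sets tested 1.62% were lower and 1.14% higher (limma, adjusted p under 0.05), again on a wider base than that of the 8 genes. The median difference was -0.69 for the 8 genes and -0.54 for all 11, beside 0.02 over all probe sets. By ranges alone, 5 expansins lay below wild type and 1 above without overlap in the third genotype. There 37.1% of all probe sets had no overlap, 15.9% lying below and 21.2% above. In the double mutant 7 expansins lay below and 1 above, where 44.7% of all probe sets had no overlap, 19.7% below and 25% above. These expansin counts include EXPA24 and EXLB1.

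The count of 8 for the double mutant depended on single arrays. It was 5 without its untreated array, 3 without its IAA array, and 5 without the wild-type IAA or untreated array, and EXLB1 was the 1 rise in each of these fits. In the third genotype the count of 4 was 1 without its untreated array, 2 without its IAA array and 2 without the wild-type IAA array. With no filter on dim probe sets limma called 0 of the 11 in either comparison, and EXPA8 and EXLB1 then had adjusted p = 0.105 and 0.0869 in the double mutant. Without that filter limma called 2 probe sets in the double mutant and 1 in the third genotype over the whole table, with 4610 and 3112 at an unadjusted p under 0.05.

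Markers of some other cell types moved with these genotype differences. The 4 named pollen genes of a list of 12 had a summed intensity of 1641.8 to 1703.8 in the double mutant, 2079.9 to 2157.6 in the third genotype and 2716.5 to 3401.1 in wild type, and all 3 that were tested (ANX2, AT59 and TUA1) fell in the double mutant (limma, adjusted p from 0.00815 to 0.0326). Over all probe sets tested limma called 7.96% lower there. ANX2 entered the test through wild-type arrays alone, so this pollen count is not independent of the filter. The nectary sugar transporter gene SWEET9, the 1 named gene of 5 nectary markers, read 82.6 to 83.5 in the double mutant, 409.6 to 518.9 in the third genotype and 1460.6 to 1781.9 in wild type. Of all probe sets tested, 4.68% rose without overlap from the double mutant through the third genotype to wild type. AMS, a tapetum transcription factor gene and the 1 named gene of 11 tapetum and young anther markers, read 321.1 to 387.8, 292.2 to 374.6 and 123.9 to 217.1 in the same order of genotypes. The dividing-cell genes AUR1 and AUR2 summed to 1021.5 to 1075.4 in the double mutant, 1237.5 to 1302.8 in the third genotype and 1073.2 to 1364.7 in wild type, and neither was called between the double mutant and wild type. PYK10, the 1 named gene of 6 root markers, read 155.2 with IAA and 41.5 untreated in the double mutant, 83.1 and 88.1 in the third genotype, and 57.5 with IAA, 278.7 with mock and 64.2 untreated in wild type. Its genotypes overlapped and it was not called between them (limma, adjusted p from 0.206 to 0.785). Like EXLB1 it read highest within wild type on the mock array, where dim values were raised. PYK10 exceeded the filter on that array alone. Its other wild-type values lay below the floor, so the size of its mock difference is set by the floor and is not given. ANX2 exceeded the filter in wild type alone, SWEET9 in wild type and the third genotype, and AMS in the mutants alone. The part of cell composition in the expansin differences was not tested.

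Treatment with IAA was set against no treatment over the 3 genotypes. EXLA1 and EXLA2 were called higher, by 1.93-fold and 1.97-fold, and no expansin was called lower, although 6 of the 11 terms lay below 0. Over all probe sets limma called 0.737% higher and 0.346% lower. EXLA1 differed by 0.95 ± 0.12 and EXLA2 by 0.98 ± 0.16 on the log2 scale (SE; limma, adjusted p = 0.0214 and 0.0467), and each was higher with IAA in 3 of 3 genotypes. The median difference of the 11 genes was -0.03, beside -0.01 over all probe sets.

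In wild type the EXLA genes read as high with the mock spray, which held no auxin, as with the IAA spray. The log2 ratio of mock over untreated was 0.82 for EXLA1 and 1.11 for EXLA2, against 0.80 and 1.104 for IAA over untreated. IAA over mock was 0.06 ± 0.19 for EXLA1 and -0.07 ± 0.25 for EXLA2 in the fit (SE; limma, adjusted p = 0.974 for each). The mock term itself was 0.90 ± 0.19 and 1.05 ± 0.25 and did not pass (limma, adjusted p = 0.0944 and 0.115). With untreated and mock taken as one control neither gene was called for IAA (limma, adjusted p = 0.546 and 0.588). EXLA1 lost its IAA call without either double-mutant array (limma, adjusted p = 0.148), and EXLA2 without any array of either mutant genotype (0.0974 to 0.118) after quantile normalization (0.0578), and with the floor lowered (0.0531) or raised (0.0824) to those percentiles.

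**Figure D3:**
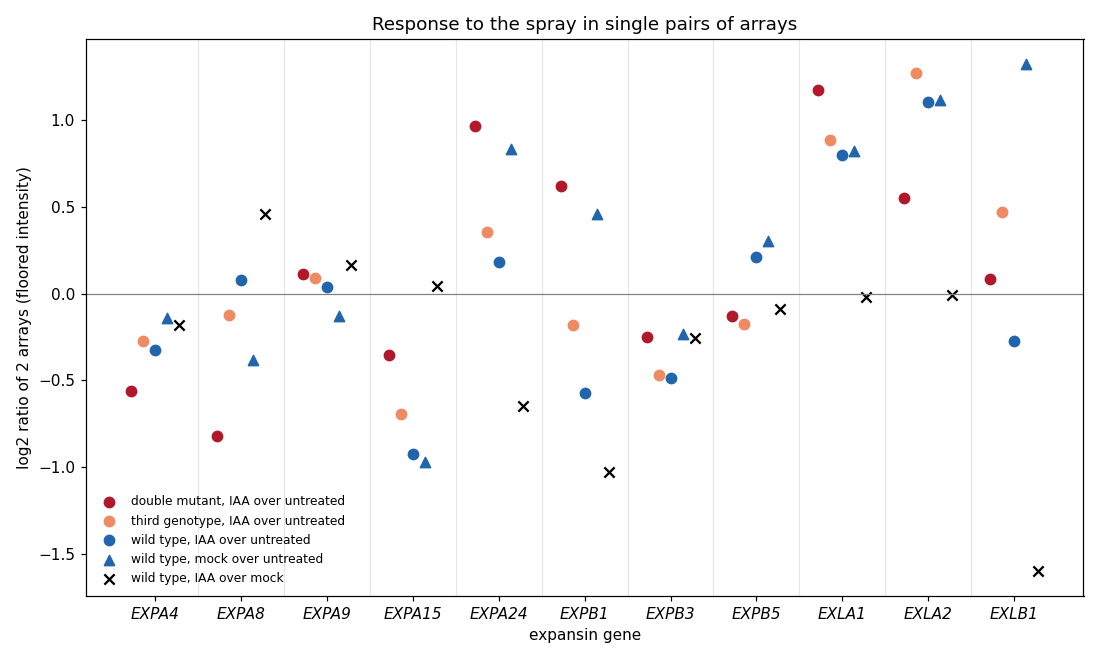
Log2 ratios of single pairs of arrays (vertical axis, floored intensity) for the 11 expansin genes (horizontal axis). Circles are IAA over untreated in each genotype, triangles mock over untreated and crosses IAA over mock in wild type; circles and triangles lie together above 0 for EXLA1 and EXLA2 and below 0 for EXPA15.

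EXPA15 (AT2G03090) was lower on every sprayed array than on the untreated array of its genotype. It read 634.9 with IAA against 812.5 untreated in the double mutant and 593.1 against 959.9 in the third genotype. In wild type it read 714.8 with IAA and 693.3 with mock, against 1355.8 untreated. The IAA term was -0.66 ± 0.14 and the mock term -0.83 ± 0.22 (log2, SE; limma, adjusted p = 0.0884 and 0.133), and IAA over mock was 0.18 ± 0.22 (limma, adjusted p = 0.889). The IAA term passed with an intensity trend in the variance prior (limma, adjusted p = 0.0211) and with the filter set to the 70th percentile (0.0458). By genotype EXPA15 had a difference of -0.45 ± 0.17 in the double mutant (limma, adjusted p = 0.109).

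EXPA4 and EXPB3 also read lower with IAA in 3 of 3 genotypes, with terms of -0.39 ± 0.12 and -0.40 ± 0.11 that did not pass (log2, SE; limma, adjusted p = 0.183 and 0.161). Their mock terms were -0.17 ± 0.18 and -0.19 ± 0.18 (limma, adjusted p = 0.691 and 0.652). IAA over mock was -0.214 ± 0.18 and -0.215 ± 0.18 (limma, adjusted p = 0.805 and 0.797). The share of all probe sets that agreed in 3 of 3 genotypes was not counted, here or for the EXLA genes. EXPA24 read higher with IAA in 3 of 3 genotypes, at 0.50 ± 0.17 (limma, adjusted p = 0.214). This value was 0.032 with the floor raised to the 40th percentile, 0.755 with it lowered to the 10th, and 0.268 without either double-mutant array. The largest single ratio of EXPA24, 0.965, was in the double mutant, whose IAA array had the second highest 10th percentile. The mock term of EXPA24 was 0.99 ± 0.26 and IAA over mock -0.49 ± 0.26 (limma, adjusted p = 0.136 and 0.595). EXPA8 had a log2 ratio of -0.82 in the double mutant, -0.12 in the third genotype and 0.08 in wild type, and its term was -0.29 ± 0.18 (limma, adjusted p = 0.481). For EXPA9, EXPB1, EXPB5 and EXLB1 the IAA term lay between -0.05 and 0.09 (limma, adjusted p from 0.747 to 0.936).

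The mock spray in wild type passed the test for 0 of the 11 expansins, and so did IAA over mock; 5 and 1 of them had an unadjusted limma p under 0.05. Over all probe sets limma called 0.753% for mock over untreated and 0.177% for IAA over mock. EXLB1 had the largest mock difference, 1.505 ± 0.25, and the largest difference of IAA over mock, -1.41 ± 0.25 (log2, SE; limma, adjusted p = 0.054 and 0.117). It passed for mock without either array of the third genotype (limma, adjusted p = 0.0167), the wild-type IAA array (0.0271) or the wild-type untreated array (0.0152), and for IAA over mock without either array of the third genotype (0.0226) or the wild-type untreated array (0.0139). With the floor raised to the 40th percentile the mock difference was 0.524 and IAA over mock -0.34 (limma, adjusted p = 0.278 and 0.644). These differences rest on 1 mock array, and EXLB1 was dim in wild type, in the range where that array reads high.

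The 7 named expansins that did not pass the intensity filter were dim throughout. Just outside the filter, EXPA20 had a highest array of 196.6. Just inside it, EXPA24 had a highest array of 263.4. EXPA7 and EXPA18, known for their role in root hairs, read at most 55.4 and 105.6. EXPA16, EXPB2 and EXLA3 reached 161.9, 143.9 and 120.1, and EXPA21 reached 23.1. EXPA21 (AT5G39260) opens a run of 6 adjacent expansin loci that ends with EXPA24. Of the others in that run, EXPA22 and the gene listed as EXP26 share a probe set that reached 45.1, and EXPA23 and EXPA25 share one that reached 127.7, so neither pair can be resolved. EXLA3 (AT3G45960) is separated from EXLA1 by 1 listed gene. On the wild-type arrays it read 65.3 with IAA, 120.1 with mock and 57.9 untreated. Unlike for EXLA1, the IAA value lay near the untreated value, and the highest array was the one where dim values were raised. Of the 7 values of EXLA3, 5 were below the floor.

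Other enzymes that act on growing walls were compared by lists of symbols. Of the xyloglucan endotransglucosylases, which cut and rejoin wall xyloglucan, 4 of 10 named genes were tested. XTH33 fell by 1.08 ± 0.16 in the double mutant and EXGT-A3 rose by 0.79 ± 0.13 (log2, SE; limma, adjusted p = 0.00676 and 0.0107), with a list median of 0.05 beside 0.02 for all probe sets. XTH33 exceeded the filter on the wild-type mock array alone. With IAA 0 of the 4 were called by limma and 3 had an unadjusted p under 0.05. EXGT-A3, XTH33 and XTH16 had differences of 0.60 ± 0.11, 0.62 ± 0.13 and 0.55 ± 0.11 (limma, adjusted p = 0.0639, 0.0904 and 0.0785). Their fitted mock differences were 0.75 ± 0.17, 1.11 ± 0.21 and 0.70 ± 0.17 in the same order and did not pass either (limma, adjusted p from 0.0727 to 0.12).

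Of the GH9 endoglucanases, which cut beta-glucans of the wall, 9 of 15 named genes were tested, and 6 were called lower and 1 higher in the double mutant, where 7.96% of all probe sets were lower and 9.14% higher. The list median was -0.65, beside 0.02 for all probe sets. GH9B11, among the 6 called lower, and GH9B5, which was not called, exceeded the filter on wild-type arrays alone. The count of 6 and the list median are therefore not independent of the filter. GH9C2 fell by 1.77 ± 0.15, GH9B8 fell by 1.36 ± 0.28 and GH9A4 fell by 1.34 ± 0.13, and GH9B18 rose by 0.91 ± 0.18 (log2, SE; limma, adjusted p from 0.000914 to 0.0211). GH9B11 read 17.5 with IAA and 61.3 untreated in the double mutant, against 530.4 with IAA, 407.9 with mock and 401.1 untreated in wild type. It passed the filter in wild type alone and both double-mutant values lay below the floor, so the size of its fitted difference is set by the floor and is not given. GH9B7 and GH9B13 fell by 0.65 ± 0.13 and 0.55 ± 0.14 (limma, adjusted p = 0.02 and 0.0384). The pectin methylesterase gene PME61 rose by 0.94 ± 0.13 (limma, adjusted p = 0.00536). For plasma membrane proton pumps, cellulose synthases, aquaporins and extensins 0 genes lay on probe sets named here.

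Among 6929 tested single-gene probe sets outside the family, the profiles closest to each expansin were found as the smallest root mean square difference over the 7 arrays after each gene's mean log2 value was taken off. For EXPA8 they were AT5G48900, the sugar transporter gene SWEET14 and AT5G44630, at distances of 0.19, 0.23 and 0.23 log2 units. AT5G48900 read 246.9 with IAA and 315.5 untreated in the double mutant and 2562.0 with IAA, 2306.6 with mock and 2293.0 untreated in wild type. EXLB1 had no profile as close: AT1G33055, AT2G21560 and AT3G55920 lay at 0.41, 0.50 and 0.55. Like EXLB1, all 3 read higher with mock than with IAA or untreated in wild type, on the array where dim values were raised. AT1G33055 read 71.0 with IAA, 117.8 with mock and 63.4 untreated there, and AT2G21560 read 55.2, 116.8 and 87.9. AT3G55920 stayed under the floor throughout wild type.

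**Figure D4:**
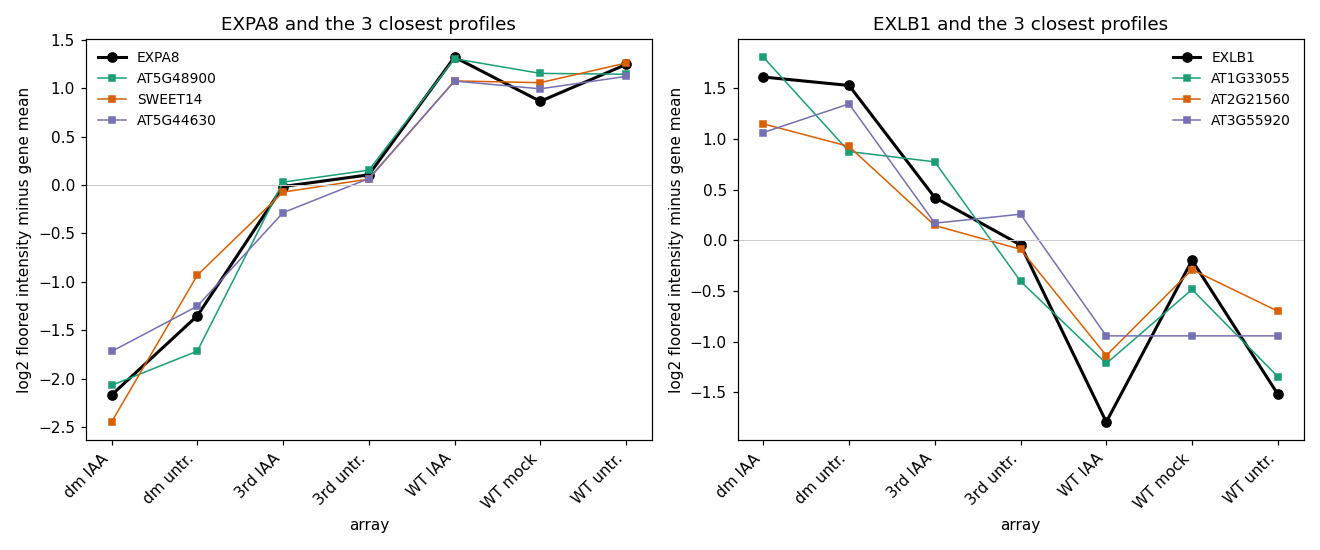
Log2 floored intensity minus each gene's mean (vertical axis) on the 7 arrays (horizontal axis) for EXPA8 and EXLB1 (black) and the 3 single-gene probe sets closest to each (colours). EXPA8 and its 3 neighbours climb in step over the genotypes, while the lines around EXLB1 are further apart, at 0.41 to 0.55 log2 units.

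The other closest profiles were AT3G02650 for EXPA4 at 0.09, the glucosinolate transporter gene GTR1 for EXPB5 at 0.09, AT1G19450 for EXPB3 at 0.07 and AT3G22660 for EXPA15 at 0.10. EXLA1 had ARL, a growth-related gene, and AT3G57450, each at 0.235, and AT2G44500 at 0.24. AT2G44500 was also the closest to EXLA2 at 0.16. AT2G44500 read 1465.5 with IAA and 1326.7 with mock against 700.9 untreated in wild type, the pattern seen for both EXLA genes. ARL read 1038.1 with IAA, 814.5 with mock and 727.5 untreated there, with mock nearer to untreated than to IAA. For EXPA24 the closest was AT1G68330 at 0.14, and for EXPB1 the MADS-box gene AGL65 at 0.12.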

How the data were processed

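Flower RNA of 7 samples was hybridised to 1-colour Affymetrix arrays. The authors deposited 1 linear intensity per probe set and array, made with MAS5 per the submitters' processing notes. Each array had a 2% trimmed mean of 500.03 or 500.04, so the authors' scaling was kept; detection calls were not used here. Gene symbols came from the platform annotation, brought up to date with RefSeq's gene table (assembly TAIR10.1), which served for names and neighbouring loci only; 13513 non-control probe sets had 1 symbol, 503 several and 8730 none.

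Intensities were floored at the 25th percentile (64.9) and taken to log2. Probe sets whose highest array exceeded the 50th percentile (248.1) were tested, 13021 in all. One additive model of genotype and treatment was fitted over 7 arrays with limma 3.58.1 in R 4.3.3 (lmFit, eBayes; 2 residual degrees of freedom, prior worth 4.945), with Benjamini-Hochberg adjustment over all probe sets and a threshold of 0.05. The mock term rests on 1 array and uses the spread of the others. Nothing says that samples came from separate harvests. Precision is limited by the number of arrays. The script was tested on simulated data.

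The expansin genes and all lists were chosen with earlier results of these data known. All measured members are described. Of the lists, members past the test are named, otherwise up to 4 with the largest difference, and for genes varying at least 1 log2 unit the 3 closest profiles were sought, of which the nearest are named. Alternatives covered floor, filter, scaling, variance prior, the control used for IAA and leaving out each array.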

Additional observations from a re-analysis of the deposited data

Results flagged for a closer look

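For 4 expansins the log2 ratio of IAA over untreated had opposite signs in 2 genotypes. Each ratio comes from 1 pair of arrays, and the differences between genotypes were not tested. For EXPA8 the ratio in the double mutant minus that in wild type was -0.89, and the ratio in the third genotype minus that in wild type was -0.20. For EXPB1 the ratio in the double mutant exceeded that in wild type by 1.19 and that in the third genotype by 0.81. Its single ratios were 0.62 in the double mutant, -0.18 in the third genotype and -0.57 in wild type. All EXPB1 values behind these ratios were under the intensity filter, which it exceeded on the wild-type mock array alone. The double-mutant IAA array also had a higher 10th percentile than its untreated array, 17.89 against 9.79. For EXPB5 the differences from wild type were -0.34 in the double mutant and -0.38 in the third genotype. For EXLB1 they were 0.36 in the double mutant and 0.74 in the third genotype, from ratios of 0.08, 0.47 and -0.28 in the double mutant, the third genotype and wild type.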

How the results depend on the processing

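The additive model compares treatments within genotypes and genotypes within treatments; a further block by replicate could not be fitted, since each group holds 1 array. Of 901 recomputed log2 differences of the 11 expansins, 791 kept their direction and their side of the threshold, 61 were no longer called, 19 became called and 30 changed sign. The 791 include values that could not move. Leaving out the mock array returned the main fit for genotype and IAA differences, since the mock term takes up that array. The filter and intensity trend settings could change a call but not a sign. The number of expansins called in the double mutant against wild type (8) was 0 with no filter and 3 to 8 when each array was left out in turn. In the third genotype (4) it was 1 with the floor raised to the 40th percentile, 0 with no filter and 1 to 4 with arrays left out. Between the double mutant and the third genotype (2) it was 0 with no filter and 0 to 2 with arrays left out. For IAA over untreated (2) it was 1 with the floor moved to the 10th or 40th percentile, 1 after quantile normalization, 0 with no filter, 0 with untreated and mock as one control, and 0 to 2 with arrays left out. For mock over untreated and for IAA over mock (0 each) it was 0 to 1 with arrays left out. Without the filter 22746 probe sets entered the fit and shared the adjustment. The unadjusted p-values moved as well, while the fitted log2 differences stayed the same. In the double mutant 7 of the 11 expansins had an unadjusted limma p under 0.05 without the filter, against 10 with it. The cause of these changes was not tested.

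Sign changes arose among uncalled log2 differences. EXPB1 in the third genotype was -0.025 after quantile normalization and -0.001 after scaling to bright probe sets, EXLA2 between the mutants was 0.005 after quantile normalization, and EXLB1 for IAA was -0.209 with one control. With arrays left out EXPB1 ran from -0.725 to 0.274 in the double mutant and -0.375 to 0.416 in the third genotype against wild type. Between the mutants EXPA15 ran from -0.298 to 0.155, EXPA24 from -0.413 to 0.284, EXPB1 from -0.745 to 0.254, EXPB3 from -0.178 to 0.05 and EXLA2 from -0.329 to 0.31. For IAA over untreated EXPB1 ran from -0.379 to 0.218, EXPB5 from -0.151 to 0.041 and EXLB1 from -0.096 to 0.275. For mock over untreated EXPB5 ran from -0.062 to 0.301. For IAA over mock EXPA8 ran from -0.089 to 0.457, EXLA1 from -0.021 to 0.208 and EXLA2 from -0.203 to 0.032.

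Over the whole table the counts moved more. The double mutant had 2227 probe sets called against wild type, 2 with no filter, 621 without its IAA array and 1195 without the wild-type IAA array. The third genotype had 360, with 216 for the 40th-percentile floor, 1 with no filter, 578 for the 70th-percentile filter, 822 with an intensity trend, 119 without its untreated array, 216 without its IAA array and 144 without either double-mutant array. The mutants differed in 163, with 77 for the higher floor, 0 with no filter (limma, 2360 at an unadjusted p under 0.05), 335 with the trend, 27 and 18 without the untreated or IAA double-mutant array and 388 without the wild-type IAA or untreated array. IAA over untreated had 141, with 52 for the higher floor, 0 with no filter (limma, 2429 unadjusted), 236 for the higher filter, 380 with the trend, 2 with one control, 0 without either double-mutant array (limma, 1639 unadjusted) and 281 without the wild-type IAA or untreated array. Mock over untreated had 98 and ranged from 0 (higher floor or no double-mutant array; limma, 2141 and 2533 unadjusted) to 906 with no filter. IAA over mock had 23 and ranged from 0 (the same settings; 1341 and 1869 unadjusted) to 844 with no filter.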
